A study of Homo sapiens with 2 samples.

Results

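The genes described here encode the human proteins of the YTH and IGF2BP families that are known as readers of N6-methyladenosine (m6A), a methyl mark on the adenosines of mRNA. Members were chosen by gene name, and all listed transcripts of YTHDF1, YTHDF2, YTHDF3, YTHDC1, YTHDC2, IGF2BP1, IGF2BP2 and IGF2BP3 were taken. These were 8 of the 59026 genes and 76 of the 206696 transcripts in the tables. The study concerned the tRNA methyltransferase METTL8, and its RNA sequencing covered untreated HEK293 Flp-In T-Rex cells, an established human embryonic kidney line with a genomic site for inserting tetracycline-controlled transgenes. The only group held 2 libraries of total RNA depleted of ribosomal RNA, named replicate 1 and replicate 2. Whether these came from separate cultures was not stated, so the SD between them may be technical, and with a single group no test was made.

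YTH proteins carry a YTH domain that holds the methylated adenosine in an aromatic pocket. YTHDF1, YTHDF2 and YTHDF3 are cytoplasmic proteins that act on the translation and decay of methylated mRNA, and YTHDF2 recruits the CCR4-NOT deadenylase. YTHDC1 is nuclear and acts in splicing and export, whereas YTHDC2 is an RNA helicase best known from germ cells. IGF2BP1, IGF2BP2 and IGF2BP3 are RNA-binding proteins with KH domains that are described to stabilise their target mRNAs and are abundant in embryonic tissue and many tumour lines.

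Replicate 1 held 25158962 estimated counts and replicate 2 held 27143860. The readers took 0.0826% of them in replicate 1 and 0.0807% in replicate 2. Of the 76 reader transcripts, 47 were above 0 in both libraries, 13 in a single library and 16 in neither. The 5 genes described in general as HEK293 markers (VIM, NEFL, LHX1, PAX2, NEFM) were all above 0, with NEFM lowest at 14.5 and 18.7 normalised counts. Of the 4 markers of other cells, PTPRC, ALB and CD3E were at 0 in both libraries, while the globin gene HBB held 179.0 and 181.8 normalised counts. Levels divided by transcript length, for the markers above 0, are given with those of the readers in the next paragraph. The part of any other cell type in the values below was not tested.

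All 8 readers were expressed in both libraries. Their levels are given as counts divided by transcript length and scaled to 1000000 per library, since longer transcripts collect more reads. IGF2BP1 had the highest mean, at 50.2 ± 9.44 (SD, n = 2), and YTHDF3 the lowest, at 12.2 ± 1.92 (SD, n = 2). Between them stood YTHDF2 at 38.1 ± 3.11, IGF2BP2 at 27.3 ± 1.22, IGF2BP3 at 27.2 ± 2.69, YTHDF1 at 21.2 ± 0.483, YTHDC1 at 18.95 ± 3.18 and YTHDC2 at 17.1 ± 0.627 (all SD, n = 2). Each lay above 76.3% to 94.4% of the 26370 genes detected in both libraries, whose median was 1.87. The 8 readers had a median of 24.2. Of the HEK293 markers, VIM and NEFL had means of 306.9 and 22.3 on this scale. LHX1 had 1.94, close to the median of the detected genes, and PAX2 and NEFM lay below it at 0.694 and 0.281. The globin gene HBB had 20.2 in replicate 1 and 20.9 in replicate 2. Its mean of 20.6 was just below that of YTHDF1 and above those of YTHDC1, YTHDC2 and YTHDF3.

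**Figure D1:**
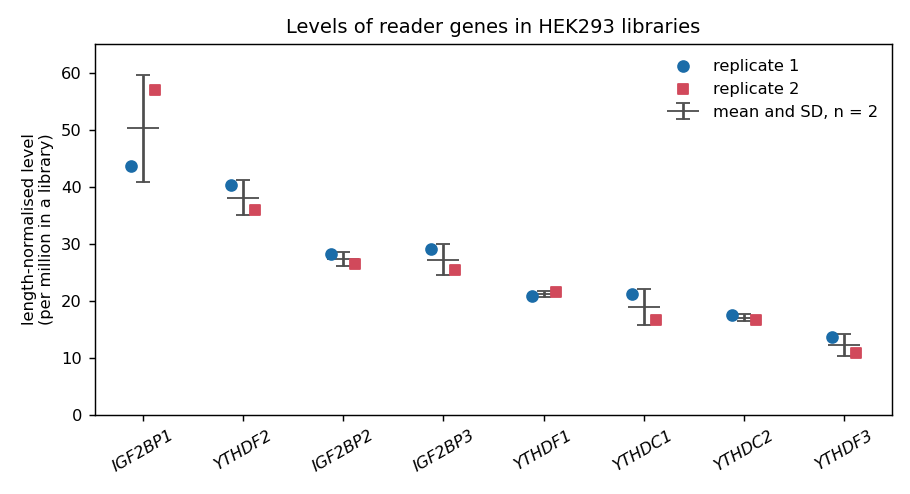
Length-normalised level, scaled to 1000000 per library (vertical axis), of each reader gene (horizontal axis), with circles for replicate 1, squares for replicate 2, and a dash and bar for mean and SD (n = 2). IGF2BP1 and YTHDF2 stood highest and YTHDF3 lowest, and IGF2BP1 had the widest gap between its libraries, from 43.5 to 56.9.

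A pair of genes was called different when its order did not change between libraries and its means lay further apart than the sum of the SDs. This held for 24 of the 28 pairs. YTHDF2 and IGF2BP1 were not called different, since the SD of IGF2BP1 was wide. YTHDC1 was not called different from YTHDC2 or from YTHDF1, and the order of YTHDF1 and YTHDC1 turned between the libraries. IGF2BP2 and IGF2BP3 had a log2 ratio of 0.00 and also changed order, but IGF2BP2 stood higher, with a ratio of 0.73, when gene counts were divided by the union of exons and with one of 0.55 from protein-coding transcripts only. The positions of YTHDF1 and YTHDC1 against IGF2BP3 depended on which transcripts were summed. With protein-coding transcripts only, IGF2BP3 had 14.2 and stood below YTHDF1 at 21.2 and YTHDC1 at 15.7.

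Summed by family, the 3 IGF2BP genes gave 100.8 in replicate 1 and 108.6 in replicate 2 on the length-normalised scale, which was 49.4% ± 3.26 (SD, n = 2) of all reader RNA. The 3 YTHDF genes gave 74.7 and 68.3, or 33.7% ± 1.70 (SD, n = 2). YTHDC1 and YTHDC2 together gave 38.7 and 33.3, or 17.0% ± 1.57 (SD, n = 2). The family order was the same in both libraries, but it depended on the length used. When gene counts were divided by the union of exons, the YTHDF genes together stood slightly above the IGF2BP genes.

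The gene totals were compared between the libraries. None of the 8 readers differed over 1.5-fold in normalised counts, against a background of 16.7% of the 19110 genes with a mean of at least 10 and 4.90% of the 8137 genes with a mean of at least 500, where all readers lie. With 8 genes, a count of 0 is near the 4.90% and does not set the readers apart. The largest difference was a log2 of −0.42 (replicate 2 minus replicate 1), in both YTHDC1 and YTHDF3. Normalised counts were lower in replicate 2 in 6 of the 8 readers, with a median log2 of −0.27 against −0.14 over the 8137 genes. YTHDF1 and IGF2BP1 were the exceptions, at 0.02 and 0.08.

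Within genes, the transcripts differed more. The leading transcript, the one with the highest estimated count, was the same in both libraries in 7 of the 8 readers. Another leader was found in 18.1% of all 14232 genes that have several transcripts and reach a total of 10, and in 13.3% of the 7622 such genes with a mean of at least 500. The exception was YTHDF3. The share of a gene's counts that sat on other transcripts in replicate 2 than in replicate 1 had a median of 10.1% over the 7622 genes. It was 51.0% for YTHDF3 and 35.3% for IGF2BP3, above 99.2% and 95.03% of those genes. In YTHDF2 it was 16.0% and in IGF2BP2 9.07%, followed by YTHDC1 with 6.86%, YTHDC2 with 6.81%, IGF2BP1 with 1.98% and YTHDF1 with 0%.

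**Figure D2:**
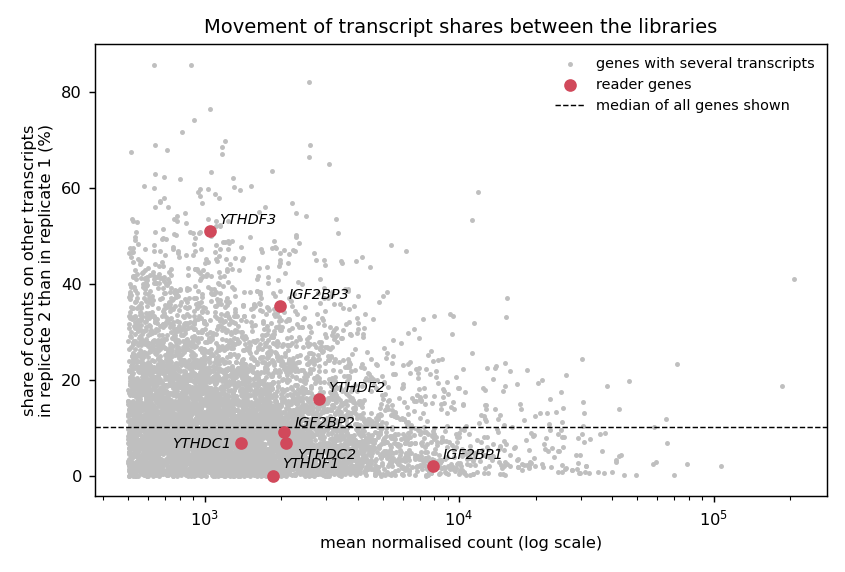
Share of counts on other transcripts in replicate 2 than in replicate 1 (vertical axis, %) against the mean normalised count (horizontal axis, log scale) for 7622 genes with several transcripts (grey) and the 8 readers (red), with the median of 10.1% as a dashed line. YTHDF3 and IGF2BP3 lay far above the median and IGF2BP1 and YTHDF1 near 0.

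YTHDF1, described to promote translation of methylated mRNA, lies on the minus strand at chr20:63195429-63216139 (GRCh38, ENSG00000149658). Normalised counts were 1847 in replicate 1 and 1873 in replicate 2, the narrowest spread of the YTH genes. On the length-normalised scale these were 20.8 and 21.5. All its counts sat on YTHDF1-202, which encodes 559 residues, and the other listed transcript, YTHDF1-201, was at 0 in both. A count of 0 allowed YTHDF1-201 a share of up to 0.172% in replicate 1 and 0.149% in replicate 2. Of the 3149 words of 50 nucleotides in YTHDF1-202, 2506 occur in no other listed transcript of the gene, which is 79.6% of its words.

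YTHDF2, the reader tied to mRNA decay, lies on the plus strand at chr1:28736621-28769775 (ENSG00000198492). Replicate 1 gave 3036 normalised counts and replicate 2 gave 2601, or 40.3 and 35.9 on the length-normalised scale. It was the most abundant YTHDF gene in both libraries, with 53.2% ± 0.965 (SD, n = 2) of the family against 29.7% ± 2.57 for YTHDF1 and 17.1% ± 1.60 for YTHDF3. Its leading transcript YTHDF2-208 held 47.9% of the gene's counts in replicate 1 (exact 95% interval 46.0 to 49.7) and 42.0% in replicate 2 (40.2 to 43.8). YTHDF2-209 held 40.6% and 30.5%. YTHDF2-201 held 6.17% and 16.1%, and YTHDF2-206, annotated without a coding sequence, held 4.89% and 10.5%.

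YTHDF2-208 and YTHDF2-209 were lower in replicate 2 and the other pair higher. YTHDF2-209 and YTHDF2-201 share a coding sequence length of 1737 nt, or 579 residues. Their sum was 46.8% in replicate 1 and 46.6% in replicate 2, which differed far less than either transcript did. Neither has a word of 50 nucleotides that is absent from the gene's other transcripts. YTHDF2-208 encodes 529 residues and skips an exon of 25 nt at chr1:28737658-28737682, which is coding in the 579-residue transcripts. The sequences show what separates these forms, with the skipped exon in capitals on the upper line and the bases after the junction in capitals on the lower.

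YTHDF2-209 with the 25-nt exon: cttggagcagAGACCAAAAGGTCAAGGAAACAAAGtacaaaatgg

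YTHDF2-208 across the junction: agcctcttggagcagTACAAAATGGATCTG

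The transcripts with this exon held 51.9% of the counts of transcripts that hold or skip it in replicate 1 (exact 95% interval 50.1 to 53.8) and 57.6% in replicate 2 (55.7 to 59.4). The mean was 54.8% ± 4.01 (SD, n = 2), or 54.3% ± 4.24 per length. Both forms were therefore present in similar amounts. The transcripts with the exon include YTHDF2-206, without a coding sequence, at 4.89% and 10.5% of the gene. The 579-residue transcripts alone held 46.8% and 46.6%, against 47.9% and 42.0% for YTHDF2-208. Of the words of YTHDF2-208, 352 of 2670 also occur in the pseudogene YTHDF2P1, which was listed at 0 and 1.44 normalised counts. A long non-coding RNA gene on the opposite strand, ENSG00000289291, overlaps the exons of YTHDF2 over 920 nt and had no listed value. Strandedness was not stated, so its reads may not have been told apart from those of YTHDF2.

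YTHDF3, which acts with both other YTHDF proteins, lies on the plus strand of chromosome 8 (ENSG00000185728). Replicate 1 gave 1202 normalised counts and replicate 2 gave 899, or 13.6 and 10.9 on the length-normalised scale. It was the lowest of the 8 readers in each library and had the most divided transcripts. YTHDF3-208, annotated as a target of nonsense-mediated decay (NMD), led in replicate 1 with 35.0% (exact 95% interval 32.3 to 37.9) and held 21.9% in replicate 2 (19.3 to 24.6). YTHDF3-209 led in replicate 2 with 27.2% (24.4 to 30.1) and held 7.83% in replicate 1 (6.34 to 9.55). YTHDF3-215 held 2.40% and 23.95%.

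The remaining transcripts of YTHDF3 also differed in both directions. YTHDF3-214 held 19.9% in replicate 1 and was at 0 in replicate 2, where the limit was 0.309%. YTHDF3-201 held 12.7% and 0.431%, and YTHDF3-205 12.3% and 6.76%. YTHDF3-213 differed least, with 7.71% and 9.17%. YTHDF3-214 and YTHDF3-209 share a coding length of 1602 nt, or 534 residues, and their sum was 27.7% in replicate 1 and 27.2% in replicate 2. The coding lengths of 1749 nt and 1764 nt differed more, at 2.40% and 23.95% for the former and 7.71% and 16.8% for the latter. The 1764-nt length is shared by YTHDF3-213 and YTHDF3-212. YTHDF3-212 was at 0 in replicate 1 and held 7.67% in replicate 2. YTHDF3-208, YTHDF3-209 and YTHDF3-205 have no word of 50 nucleotides of their own, and YTHDF3-215, YTHDF3-214, YTHDF3-213 and YTHDF3-201 have 46 or 47 each. Of its coding segments, an in-frame extension of 6 nt had the widest spread of all segments examined. Transcripts with it held 89.7% of the counts of transcripts that hold or skip it (exact 95% interval 87.8 to 91.4) in replicate 1. In replicate 2 they held 48.5% (45.3 to 51.7). The transcripts without the extension include YTHDF3-209 and YTHDF3-215. The protein-coding share of YTHDF3 was 62.9% and 75.2%. This share includes YTHDF3-201, which encodes only 52 residues and skips a coding exon of 1599 nt.

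**Figure D3:**
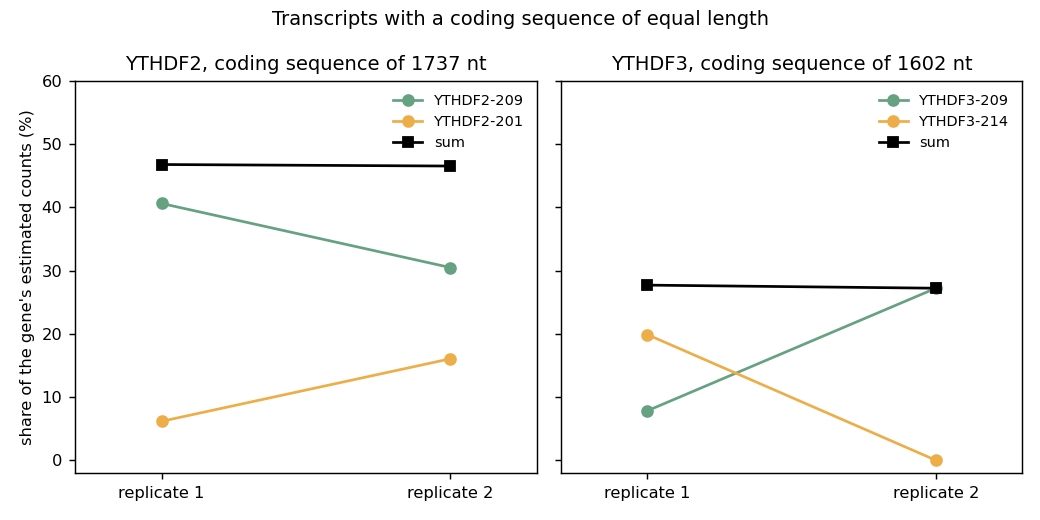
Share of the gene's estimated counts (vertical axis, %) in replicate 1 and replicate 2 (horizontal axis) for the transcripts of YTHDF2 with a coding sequence of 1737 nt and of YTHDF3 with one of 1602 nt, with their sums as black squares. The single transcripts differed in opposite directions while the sums were 46.8% and 46.6% and at 27.7% and 27.2%.

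The pooled background shows how common a vanishing transcript was. Of the 21796 transcripts that averaged 5% or more of a gene with a mean of at least 500, 3.06% were listed at 0 in a single library. Among the readers 22 transcripts reached this share and 2 were at 0 in a single library, YTHDF3-214 and IGF2BP3-202. Exact intervals of the share failed to overlap between the libraries in 57.4% of the 21796 transcripts and in 17 of the 22, so intervals that lie apart were common throughout.

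YTHDC1, the nuclear reader, lies on the minus strand at chr4:68310387-68350090 (ENSG00000083896). Replicate 1 gave 1588 normalised counts and replicate 2 gave 1184, or 21.2 and 16.7 on the length-normalised scale. It made up 52.5% ± 3.29 (SD, n = 2) of the YTHDC pair, leaving YTHDC2 at 47.5%. YTHDC1-202, encoding 709 residues, held 60.2% of its counts in replicate 1 (exact 95% interval 57.6 to 62.6) and 66.5% in replicate 2 (63.8 to 69.1). YTHDC1-207, encoding 735 residues, held 28.7% and 25.1%. YTHDC1-201, encoding 727, held 6.48% and 3.23%. The order of the 3 was the same in both libraries, and 96.3% and 96.0% of the counts lay on protein-coding transcripts. Only 47 of the 3195 words of YTHDC1-202 and 69 of the 2934 of YTHDC1-207 are absent from the gene's other transcripts. Their shares therefore rest mostly on how shared reads were divided, which the intervals do not cover.

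The 3 proteins of YTHDC1 differ by an exon of 54 nt at chr4:68332794-68332847, which YTHDC1-207 and YTHDC1-201 hold, and by an exon extension of 24 nt at chr4:68318730-68318753, which only YTHDC1-207 of these holds. Both keep the reading frame and add 18 and 8 codons. They are printed with the segment in capitals, or with the bases after the junction in capitals where the segment is skipped.

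YTHDC1-207 with the 54-nt exon: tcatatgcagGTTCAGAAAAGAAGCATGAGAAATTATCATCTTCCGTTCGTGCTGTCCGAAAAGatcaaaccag

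YTHDC1-202 across the junction without it: cagagtcatatgcagATCAAACCAGTAAAC

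YTHDC1-207 with the 24-nt extension: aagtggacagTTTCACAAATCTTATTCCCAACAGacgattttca

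YTHDC1-202 across the junction without it: ccaggaagtggacagACGATTTTCAGGAGT

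Transcripts with the 54-nt exon held 36.9% of the counts of transcripts that hold or skip it in replicate 1 (exact 95% interval 34.3 to 39.4). In replicate 2 they held 29.9% (27.3 to 32.6), with a mean of 33.4% ± 4.94 (SD, n = 2). For the 24-nt extension the share was 30.1% (27.7 to 32.5) and 26.5% (24.04 to 29.1), with a mean of 28.3% ± 2.54 (SD, n = 2). Both segments were in the minority form in each library.

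YTHDC2, a helicase that works with MEIOC and RBM46 in meiosis, lies on the plus strand at chr5:113513694-113595285 (ENSG00000047188). Replicate 1 gave 2339 normalised counts and replicate 2 gave 1835. On the length-normalised scale the values were closer, at 17.5 and 16.6. YTHDC2-201, encoding 1430 residues, held 85.3% (exact 95% interval 83.8 to 86.8) and 78.5% (76.6 to 80.3) of the counts, and YTHDC2-207, encoding 739, held 8.83% and 11.1%. YTHDC2-207 is much shorter, and per length it took 16.2% and 17.1% of the gene. Counted without length YTHDC2 exceeded YTHDC1 in both libraries, and per length it did not.

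IGF2BP1, the family member with the highest count, lies on the plus strand at chr17:48997385-49056145 (ENSG00000159217). Replicate 1 gave 7719 normalised counts and replicate 2 gave 8136, which was 66.3% of the family when not divided by length. Per length it had 43.5 and 56.9, or 43.2% and 52.4% of the family, and it led the family in both libraries. IGF2BP1-201, with 8796 nt and 577 residues, held 94.96% (exact 95% interval 94.4 to 95.5) and 93.1% (92.5 to 93.6) of the counts. IGF2BP1-204, a retained-intron transcript of 461 nt, held 0.591% and 2.09% of the counts. Because it is so short, this was 8.20% and 23.8% of the gene per length. A transcript with few reads therefore made up most of the gap between the gene's levels of 43.5 and 56.9. Of its 8747 words, IGF2BP1-201 shares none with other genes and holds 6997 alone.

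IGF2BP1-202, encoding 438 residues, lacks adjacent coding exons of 282 nt at chr17:49038168-49038449 and 135 nt at chr17:49039957-49040091. The junction it uses instead is shown because it marks the short form, with the bases after the junction in capitals.

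IGF2BP1-202 across the junction: ggagcagaccaggcaGGCTGACGAGGTTCC

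The transcript with both exons held 95.7% (exact 95% interval 95.3 to 96.2) and 95.5% (95.1 to 95.9) of the counts of the 2 forms, with a mean of 95.6% ± 0.161 (SD, n = 2). This was the narrowest spread of any segment examined. Per length the mean was 76.6% ± 0.692 (SD, n = 2), since the full transcript is several times longer. The short form was thus a small share of estimated counts and a larger share per length. IGF2BP1-202 is annotated at 1317 nt, of which 1314 nt are coding, and 49 of its 1268 words are absent from the gene's other transcripts. Its share per length depends on this annotated length and on how shared reads were divided.

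IGF2BP2, the family member most widely expressed in adult tissue, lies on the minus strand at chr3:185643130-185825042 (ENSG00000073792). Replicate 1 gave 2074 normalised counts and replicate 2 gave 2019, or 28.2 and 26.4 on the length-normalised scale. IGF2BP2-202, encoding 599 residues, held 76.3% (exact 95% interval 74.3 to 78.2) and 71.9% (70.0 to 73.8), and IGF2BP2-203, encoding 536, held 13.4% and 15.4%. Per length IGF2BP2-203 took 20.8% and 25.2%. Both transcripts kept their rank. IGF2BP2-201, encoding 556 residues, was at 0 in replicate 1, where the limit was 0.153%, and held 6.61% in replicate 2. Neither IGF2BP2-201 nor IGF2BP2-203 has a word that is absent from the gene's other transcripts. Their shares therefore rest on how shared reads were divided, which the limit for IGF2BP2-201 does not cover.

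IGF2BP2-201 and a minor transcript skip an in-frame exon of 129 nt (43 codons) at chr3:185672541-185672669, and IGF2BP2-204 carries 18 more nucleotides (6 codons) at chr3:185692763-185692780. The junction without the exon and the extension with its flanks are shown, with the bases after the junction and the extension in capitals.

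IGF2BP2-201 across the junction: atgctggctgttaacACCCACTCCGGATAC

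IGF2BP2-204 with the 18-nt extension: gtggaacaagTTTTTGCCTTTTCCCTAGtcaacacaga

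Transcripts with the 129-nt exon held 99.6% (exact 95% interval 99.1 to 99.8) and 93.2% (92.0 to 94.2) of the counts of transcripts that hold or skip it. The mean was 96.4% ± 4.52 (SD, n = 2). For the 18-nt extension the share was 5.16% (4.18 to 6.22) and 2.85% (2.19 to 3.66), with a mean of 4.0% ± 1.63 (SD, n = 2). Inclusion of the exon was the rule and use of the extension the exception in both libraries. In replicate 2 the counts without the exon were all from IGF2BP2-201, which has no word of its own. The intervals for the exon do not cover the division of shared reads.

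IGF2BP3 lies on the minus strand at chr7:23310209-23470491 (ENSG00000136231). Replicate 1 gave 2191 normalised counts and replicate 2 gave 1765, or 29.1 and 25.3 on the length-normalised scale. IGF2BP3-201, encoding 579 residues, led in both libraries with 82.1% (exact 95% interval 80.4 to 83.7) and 59.1% (56.8 to 61.3). IGF2BP3-202, annotated for NMD, was at 0 in replicate 1, which allowed up to 0.145%, and held 27.1% (25.1 to 29.2) in replicate 2, where it had 478.7 normalised counts. IGF2BP3-218, encoding 198 residues, held 9.48% and 2.26%, and has no word that is absent from the gene's other transcripts. Of the 8 genes IGF2BP3 had the largest difference in its protein-coding share, with 91.6% and 61.3%, and its protein-coding counts alone differed by a log2 of −0.89.

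IGF2BP3-202 skips an in-frame exon of 117 nt (39 codons) at chr7:23319138-23319254 and the adjacent exons of 49 nt at chr7:23418776-23418824 and 52 nt at chr7:23361690-23361741. The skipped 117-nt exon is shown in capitals with its flanks, followed by both junctions of IGF2BP3-202 with the bases after the junction in capitals, since the calls for this transcript rest on them.

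IGF2BP3-201 with the 117-nt exon: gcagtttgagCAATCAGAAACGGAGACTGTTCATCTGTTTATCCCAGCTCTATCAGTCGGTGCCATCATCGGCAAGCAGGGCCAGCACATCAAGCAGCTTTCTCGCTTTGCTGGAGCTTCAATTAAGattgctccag

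IGF2BP3-202 across the 117-nt exon: tacccgcagtttgagATTGCTCCAGCGGAA

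IGF2BP3-202 across the 49-nt and 52-nt exons: cccaaaaaggcaaagTGAACACTGACTCGG

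Transcripts with the 117-nt exon held 100% (exact 95% interval 99.8 to 100) of the counts of transcripts that hold or skip it in replicate 1. In replicate 2 they held 70.9% (68.7 to 73.0), with a mean of 85.4% ± 20.6 (SD, n = 2). Together with the 49-nt and 52-nt exons this was the widest spread outside YTHDF3, and it rests on IGF2BP3-202. Only 93 of the 2939 words of IGF2BP3-202 are absent from the gene's other transcripts. The gene MALSU1 on the opposite strand overlaps the exons of IGF2BP3 over 1521 nt and had 468 and 498 normalised counts. Whether counting used strand was not stated, so reads of the pair may not have been told apart there. Of the words of IGF2BP3-201, 398 of 4225 also occur in 2 other genes, the main of which was listed at 12.8 and 17.3 normalised counts. For IGF2BP2-202 these were 311 of 4234 words.

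**Figure D4:**
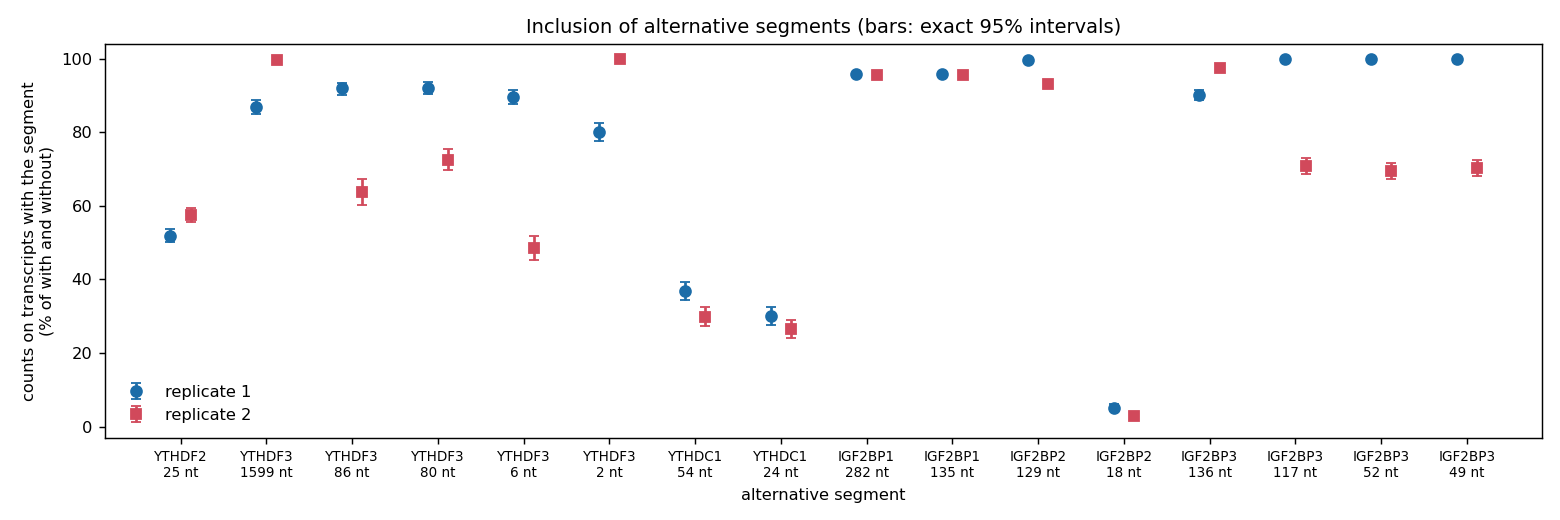
Counts on transcripts with each alternative coding segment as a share of those on transcripts that hold or skip it (vertical axis, %). The segment is named by gene and length on the horizontal axis, with circles for replicate 1, squares for replicate 2, and exact 95% intervals for counting error. IGF2BP1 lay at 95.7% and 95.5%, whereas the 117-nt exon of IGF2BP3 lay at 100% and 70.9% and the 6-nt extension of YTHDF3 at 89.7% and 48.5%.

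**Figure D5:**
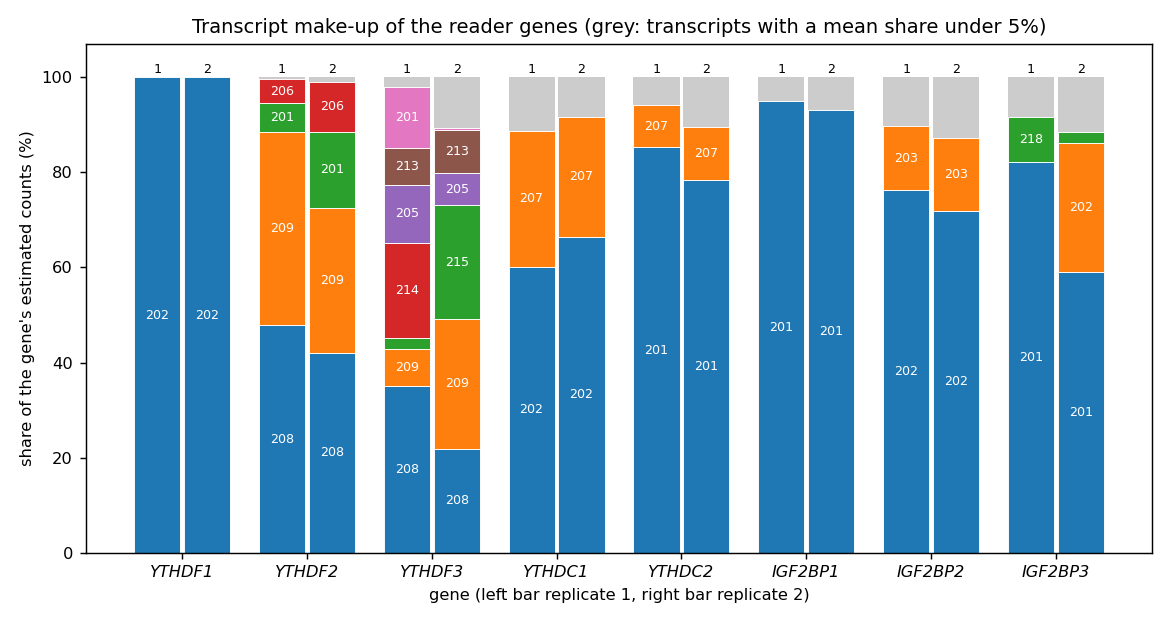
Share of each gene's estimated counts (vertical axis, %) by transcript for the 8 readers (horizontal axis), with replicate 1 left and replicate 2 right and numbers for the transcripts (202 stands for YTHDF1-202 in YTHDF1). YTHDF1 held a single transcript, IGF2BP1 was led by a transcript of 94.96% and 93.1%, and YTHDF3 was split among 7 transcripts that averaged 5% or more.

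The members of a family are paralogs and could share reads. Over the aligned bases of the leading coding sequences, YTHDF2 and YTHDF3 were identical at 72.0%, YTHDF1 and YTHDF3 at 70.5%, and YTHDF1 and YTHDF2 at 69.8%. The IGF2BP genes were identical at 70.0% to 70.7%. No word of 50 nucleotides in a leading transcript occurred in another member of its family.

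The IGF2BP genes are described as targets of the let-7 miRNAs, which are scarce in embryonic tissue. Matches to the seed of let-7a, from RefSeq (GRCh38.p14), were therefore looked for in the 3′ UTR of the highest protein-coding transcript, on the transcript's strand and with the letters CTACCTC. The seed, bases 2 to 8, is in capitals.

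hsa-let-7a-5p: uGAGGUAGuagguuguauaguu

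IGF2BP1 held 4 matches, IGF2BP2 and IGF2BP3 held 1 each, and the 5 YTH genes held none. Of all 15249 genes, 9.94% had a match. IGF2BP1 has a 3′ UTR of 6701 nt, and among the 600 genes within 20% of that length 34.5% had a match and 0.833% had as many. For IGF2BP2 and IGF2BP3 the shares of genes of like length with a match were 12.96% and 12.7%. The matches are printed in capitals, in the order of the transcript.

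IGF2BP1 chr17:49051076-49051082: tgtgtgcgaagtaaaCTACCTCaaggtatg

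IGF2BP1 chr17:49053713-49053719: cagcagtgctagtaaCTACCTCacagagcc

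IGF2BP1 chr17:49054367-49054373: gtataaatggattaaCTACCTCaatcctta

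IGF2BP1 chr17:49055012-49055018: tcacttttgttttatCTACCTCttagcaaa

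IGF2BP2 chr3:185644221-185644227: aacacacagaagaagCTACCTCaggtgttt

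IGF2BP3 chr7:23311796-23311802: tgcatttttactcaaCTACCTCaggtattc

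The matches describe letters and no binding, and mature miRNAs were not analysed here. LIN28B, whose protein blocks let-7 maturation, had 15.0 and 12.3 on the length-normalised scale. HMGA2, described both as a let-7 target and as an IGF2BP target, had 11.8 and 10.3. The letters GGACT, a core form of the m6A motif, occurred on the transcript's strand at 1.17 per 1000 nt in IGF2BP2, 1.10 in YTHDF2 and 1.02 in IGF2BP1, above the median of 0.947 over the 15249 genes. The other 5 readers lay below it, from 0.634 in YTHDC2 to 0.308 in YTHDC1. GGACT occurred in 90.0% of genes, and whether these sites carry m6A was not measured.

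The readers stood beside other genes of the pathway, which were chosen by described role. Of 9 other proteins described to bind m6A RNA all were detected, with a median of 66.7 on the length-normalised scale, above that of the readers. HNRNPC and RBMX, nuclear RNA-binding proteins, were highest at 265.7 ± 0.881 and 173.2 ± 27.7 (SD, n = 2), and FMR1 was lowest at 18.5 ± 1.38. A single gene of the 9 differed over 1.5-fold, PRRC2A, with a log2 of 0.60. Of 10 decay factors described with YTHDF2 all were detected, with a median of 26.0. The CCR4-NOT scaffold CNOT1 at 118.6 ± 3.87 and the deadenylase CNOT7 at 97.3 ± 11.3 (SD, n = 2) stood above YTHDF2, and the RNase P and MRP protein POP1 was lowest at 4.27 ± 0.770. A single gene of these, RIDA, differed over 1.5-fold, with a log2 of −0.65. Over all genes, 16.7% with a mean of at least 10 and 4.90% with a mean of at least 500 differed over 1.5-fold.

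Of 7 partners described for YTHDC1 and YTHDC2, 6 were detected. The splicing factors SRSF3 and SRSF7 were highest at 134.0 ± 14.7 and 94.3 ± 13.7 (SD, n = 2). RBM46, a germline partner of YTHDC2, was at 0 in both libraries, while its other meiotic partner MEIOC had 2.76 and 3.59. Of 10 partners and targets described for IGF2BP proteins all were detected and none differed over 1.5-fold, against the same shares over all genes. ACTB and PABPC1 were highest at 602.4 ± 28.2 and 504.3 ± 15.5 (SD, n = 2), and MYC had 79.0 and 99.7. IGF2, the mRNA after which the family is named, was lowest at 0.445 and 0.595, with 56.7 and 74.5 normalised counts, and CD44 had 2.57 and 1.62.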

How the data were processed

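Per the labels, TruSeq libraries were made from rRNA-depleted total RNA. The submitters' processing notes name FastQC, STAR 2.7.0d, RSEM 1.3.3 and R 3.6.3, and the study names GRCh38 as genome. Neither read length nor strandedness was stated. The authors deposited an estimated count per transcript, made with RSEM, which divides shared reads between transcripts. The deposited normalised signal was this count divided by a size factor per library (0.945 and 1.08). The tables of METTL8 transcripts alone were not used.

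Transcripts were matched without version to GENCODE release 44 (GRCh38). This placed 202217 of 206696 transcripts and 96.9% and 96.8% of counts. All 76 reader transcripts matched, 8 with another version, so their lengths and exons may differ from those used in counting. Gene values are sums over transcripts. Length-normalised levels are estimated counts divided by transcript length, scaled to 1000000, with no effective-length correction. Log2 differences used a pseudocount of 1.

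Shares have exact (Clopper-Pearson) 95% intervals on rounded counts, and a transcript at 0 has the upper limit of 3 counts. Both cover counting error only and not the division of shared reads between transcripts. Segments were coding or other exons separating transcripts with mean shares of at least 3%. Segment shares sum the estimated counts of whole transcripts and do not count reads over the segment. Named transcripts average 5% or more of their gene. Of the other gene lists, the 2 highest and the lowest, and genes at 0, were named, and any other gene or transcript named was chosen with its value in view. Members and lists were chosen with earlier results of these data known. The segments, 50-nt words, seed and motif counts, and the backgrounds at a mean of 500 were added after seeing the data. Python 3.11.15, pandas 2.3.3, scipy 1.17.1, Biopython 1.88 and edgeR 4.0.16 (TMM factors) were used.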

Additional observations from a re-analysis of the deposited data

How the results depend on the processing

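With 2 libraries of a single group, each value has only the spread between these libraries behind it. The share of the leading gene in its family moved with the use of length. Without division by length, YTHDF2 held 49.1% of its family, YTHDC1 39.8% and IGF2BP1 66.3%. With the length of the union of exons, YTHDF2 held 50.1% and IGF2BP1 57.2%. With a single library, the shares ranged from 52.6% to 53.9% for YTHDF2, from 50.1% to 54.8% for YTHDC1 and from 43.2% to 52.4% for IGF2BP1. The number of pairs called different was 24 as reported, and 22, 21 and 21 without length, with the union of exons and with protein-coding transcripts only. Without length, the log2 ratio turned to −0.59 for YTHDC1 over YTHDC2, to −0.17 for YTHDF1 over YTHDC2, to 0.028 for YTHDC2 over IGF2BP2 and to 0.078 for YTHDC2 over IGF2BP3. With the union of exons it turned to 0.60 for YTHDF1 over IGF2BP2 and to 1.32 for YTHDF1 over IGF2BP3. With protein-coding transcripts only it turned to 0.030 for YTHDF1 over IGF2BP2, 0.58 for YTHDF1 over IGF2BP3 and 0.14 for YTHDC1 over IGF2BP3. In these settings the length or the transcripts summed change by construction. The count of readers over 1.5-fold went from 0 to 1 with protein-coding transcripts only, by IGF2BP3. The leader was the same in 7 of 8 readers under all alternatives run. No paired analysis was possible because all samples belong to a single group.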
